A study of Mus musculus with 16 samples.

Results

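Cytosolic heat shock genes and the cold-induced RNA-binding protein genes Rbm3 and Cirbp were described in mouse kidney, from two-channel cDNA arrays. The set holds 10 genes chosen by symbol, of which 9 had a named probe: 7 heat shock genes (Hspa1a, Dnaja1, Dnajb1, Bag3, Hsp90aa1, Hsph1 and Hspb1) and both cold-induced genes. Hspa8, the constitutive Hsc70 chaperone, had no probe under its symbol and is not analysed here. The 9 genes had 11 of the 20355 probes, 2 each for Bag3 and Hsp90aa1 and 1 each for the others. All 9 passed the filter on missing values.

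The tested animals were 4 male mice labelled MFP2-/-, aged 15 weeks, and they were compared with 1 pool of RNA from 5 male wild-type animals of the Swiss strain SWR/Ola Hsd, also aged 15 weeks. MFP2, the product of the Hsd17b4 gene, is a multifunctional peroxisomal enzyme that shortens very long chain fatty acids and bile acid precursors. The labels give no background strain for the mutants, so genotype and strain cannot be told apart, and a single pool gives no spread for the wild type. For mouse 1 the title and the source name carry different animal numbers; its arrays share 1 mouse identifier and were treated as 1 animal. Each mouse had 4 arrays, 2 with the mutant in Cy5 and 2 with the mutant in Cy3, which gave 16 arrays; the 4 arrays of a mouse share its RNA, so n is 4 mice.

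Heat shock proteins are chaperones that bind unfolded proteins. Their genes are switched on by heat shock factor 1 when misfolded protein accumulates, and some are also abundant in unstressed cells. Hsp70 works with J-domain co-chaperones, nucleotide exchange factors such as the Bag proteins and Hsp110, and passes some of its clients to Hsp90. Rbm3 and Cirbp are small RNA-binding proteins whose transcripts rise when cells are mildly cooled and drop when they are warmed, the opposite of the heat shock genes. In bulk kidney RNA, fewer cells of a type and less RNA per cell cannot be told apart.

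Stretches of promoter are shown because the heat shock genes are known to share the heat shock element, made of inverted GAA units. RefSeq windows (assembly GRCm38.p6) were matched by symbol for 7 of the 10 listed genes, 12 windows in all, and the 250 bases before each start were searched. A pair of units, spelled GAANNTTC or TTCNNGAA, was found upstream of 4 of the 6 heat shock genes that had a window. Each of those spellings reads the same on both strands. Among all genes with a window, 14.5% hold such a pair. The following stretches run 5′ to 3′ on the strand of the gene, with the pair in capitals for the heat shock genes.
Hspa1a, chr17:34972233-34972280, minus strand: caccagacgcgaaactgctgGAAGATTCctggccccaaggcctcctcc
Dnaja1, chr4:40722324-40722371, plus strand: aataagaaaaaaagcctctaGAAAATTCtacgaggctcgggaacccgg
Hsph1, chr5:149636342-149636389, minus strand: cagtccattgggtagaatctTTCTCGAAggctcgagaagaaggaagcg
Hspb1, chr5:135887782-135887849, plus strand: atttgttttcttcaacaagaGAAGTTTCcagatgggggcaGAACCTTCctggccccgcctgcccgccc
Cirbp, chr10:80167589-80167619, plus strand: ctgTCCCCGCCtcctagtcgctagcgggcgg

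The Hspb1 stretch holds 2 such pairs, those of Hspa1a, Dnaja1 and Hsph1 hold 1 each, and that of Cirbp holds none. Dnaja1 has 3 annotated windows, and its pair lies in the most upstream of them. The windows of Dnajb1 and Bag3 held none. A run of 3 alternating units, which is a pair followed after 2 bases by a further inverted unit, was in none of these 6 genes. Among all genes 0.514% hold such a run, and each of them also contains the pair. In the Cirbp stretch the capitals mark TCCCCGCC, letters described for a mild-cold element of that gene. Searched with its reverse complement GGCGGGGA, it was also present upstream of Hspa1a, Dnaja1 and Bag3, and 5.37% of all genes hold it. These matches describe the letters in these windows and are not evidence of binding.

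The values below are log2 ratios, mutant over pool, after each array was centred on its median. The direction is likely rather than stated, and it rests on the labels, in which channel 1 always holds the mutant. Signs that held when the dyes were swapped show neither which way the arrays run nor that all run the same way. With values read as Cy5 over Cy3 on every array, the mean of Hspa1a was 0.09 and that of Rbm3 was -0.05. Hspa1a was below 0 on all 8 Cy5 arrays, those with the mutant in Cy5, and on all 8 Cy3 arrays. Of the 2 probes for the targeted gene Hsd17b4, probe 4590 was below -1 on all 8 arrays of mice 1 and 2, while its means were -0.10 in mouse 3 and -0.34 in mouse 4. The other, probe 1446, had means of 0.02, 0.83, 0.34 and 0.52 in mice 1 to 4, and neither probe could be placed on the transcript here, so this gene does not check the labels of mice 3 and 4. The labels were used as given. A ratio holds no level, so the labelled tissue could not be checked by the presence of kidney markers.

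The 9 genes were listed with their ratios of this same contrast known, so the ratios are a description and support nothing beyond it. All 7 heat shock genes had a mean below 0 and both cold-induced genes a mean above 0. The median of the 7 heat shock genes was -0.45, against 0.00 over all 16140 rows tested (genes, or single probes without a name). Limma with Benjamini-Hochberg adjustment called 0% of those rows lower and 0% higher at 0.05, so no member was called in either direction; without adjustment, 9.04% of rows, or 1459, had a limma p under 0.05. For scale, 1% of rows had a mean below -0.34 and 1% had a mean above 0.49.

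**Figure D1:**
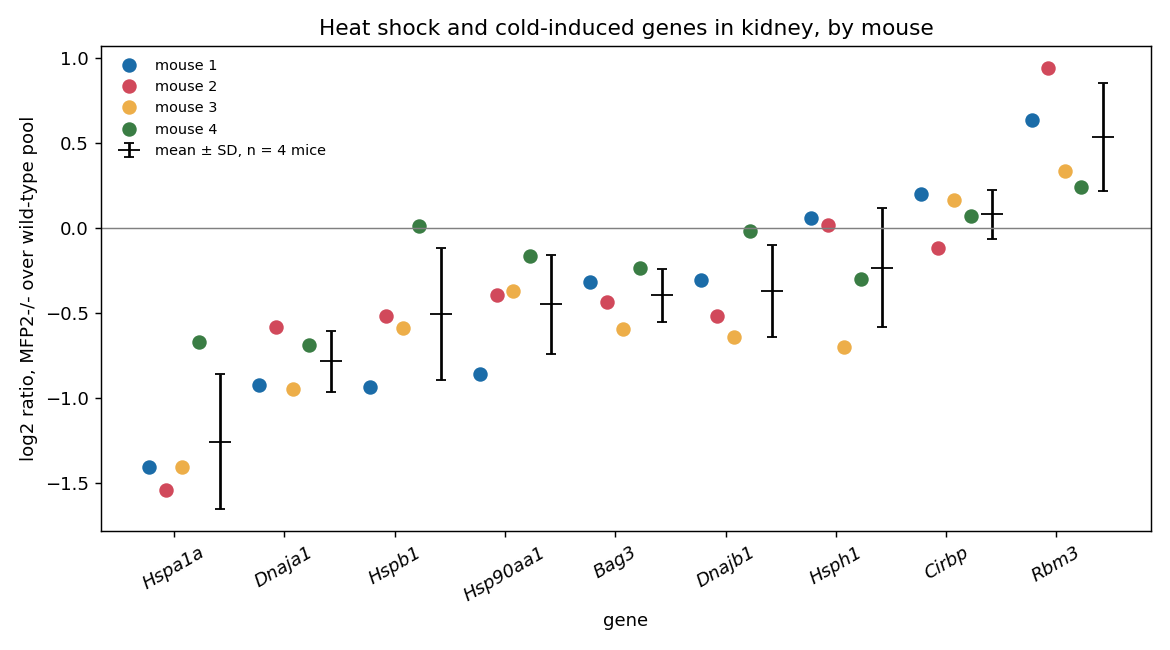
Log2 ratio of MFP2-/- over the wild-type pool for each measured gene (x axis) in each of the 4 mice (coloured points), with the mean and SD over mice as black bars. Hspa1a is lowest, near -1.4 to -1.5 in mice 1 to 3 and -0.67 in mouse 4, and Rbm3 is highest, between 0.24 and 0.94.

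Hspa1a encodes the inducible Hsp70, which is scarce in most unstressed cells and rises steeply under heat or protein stress. Its log2 ratios in mice 1 to 4 were -1.41, -1.54, -1.41 and -0.67. Mice 1 to 3 lay close together and mouse 4 apart from them, nearer to 0. The mean was -1.25 ± 0.40 (SD, n = 4), a linear ratio of 0.419 to the pool, and it ranked 1 from the lowest of all 16140 rows, or 1 from the highest if the direction is turned. Read as Cy5 over Cy3 on every array, its mean was 0.09. Over the 16 arrays Hspa1a ran from -2.08 to -0.24 with a median of -1.32, so that all arrays were below 0. Of 14640 rows with a value on every array, 0.0342% were below 0 on all 16. These were 5 rows, Hspa1a, Bag3 and the unnamed probes 11818, 17663 and 2742. The 3 unnamed probes were singled out after their values were seen.

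Hspa1b, the neighbouring and nearly identical second copy of inducible Hsp70, had 1 probe that was measured on 4 arrays only. It had -0.74 on a Cy5 array and 0.49 on a Cy3 array of mouse 3, and -1.71 and -1.62 on the Cy5 arrays of mouse 4. It was below 0 on 3 of those 4 arrays and entered no test. Since a cDNA probe may bind transcripts of both copies, the Hspa1a ratio cannot be assigned to 1 of them.

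The J-domain partners of Hsp70, which bring it clients and stimulate its ATPase, had ratios on the same side. Dnaja1, a farnesylated co-chaperone, had -0.92, -0.58, -0.95 and -0.69 in mice 1 to 4, with a mean of -0.78 ± 0.18 (SD, n = 4). No mouse was near 0, and 15 of 16 arrays were below it; the exception was 0.17 on 1 Cy5 array of mouse 1. Its mean ranked 8 from the lowest of all rows, or 8 from the highest if the direction is turned, and read as Cy5 over Cy3 it was 0.14. The mean was -0.57 on repeat 1 and -0.99 on repeat 2, both on the same side of 0.

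Dnajb1, the main stress-inducible Hsp40, had -0.30, -0.51, -0.64 and -0.02 in mice 1 to 4, with a mean of -0.37 ± 0.27 (SD, n = 4). Mouse 4 was at the level of the pool while the other 3 mice were below it. Dnajb1 was below 0 on 15 of 16 arrays, with 0.39 on 1 array of mouse 4. Within 1 mouse and orientation, its repeat arrays were the closest of the set. Between orientations they differed more in mouse 2, with -0.91 and -0.82 in Cy5 against -0.17 and -0.16 in Cy3. Over all mice the means were -0.46 on the Cy5 arrays and -0.28 on the Cy3 arrays. The SD between repeat arrays of 1 mouse and orientation was 0.14 for Dnajb1, against 0.27 for the median probe of the platform.

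Among the nucleotide exchange factors, which release clients from Hsp70, Bag3 also links Hsp70 to autophagy and to small heat shock proteins. Its 2 probes together had -0.32, -0.43, -0.59 and -0.23 in mice 1 to 4, with a mean of -0.39 ± 0.16 (SD, n = 4). The mean of both probes was below 0 on all 16 arrays, but each probe alone was below 0 on 11 and above 0 on 5. For probe 11728 these 5 were all Cy3 arrays, and for probe 19535 all Cy5 arrays. Probe 11728 averaged -0.46 and carried a value of -3.15 on 1 array of mouse 3. Probe 19535 averaged -0.33, with -0.03 on the Cy5 arrays and -0.63 on the Cy3 arrays.

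Hsph1, the Hsp110 exchange factor, was the least settled heat shock gene. It had 0.06, 0.02, -0.70 and -0.30 in mice 1 to 4, with a mean of -0.23 ± 0.35 (SD, n = 4). The means of mice 1 and 2 were near 0 and those of mice 3 and 4 below it, but single arrays weighed on them. The arrays of mouse 1 had -0.98, -0.68, -0.66 and 2.56, and those of mouse 2 had -0.43, -0.64, 1.07 and 0.07. In mouse 3, 1 array had -2.12. The mean over mice hid a split by dye. It was -0.76 over the Cy5 arrays, all 8 below 0, and 0.29 over the Cy3 arrays, 4 below and 4 above. The dye term had an unadjusted limma p of 0.0205 and an adjusted p of 0.104. Single arrays ran from -2.12 to 2.56, and the repeat SD was 0.97.

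Hsp90aa1 encodes the inducible cytosolic Hsp90, which matures kinases and steroid receptors. Averaged over 2 probes it had -0.86, -0.40, -0.37 and -0.17 in mice 1 to 4, with a mean of -0.45 ± 0.29 (SD, n = 4). The probes differed. Probe 8066 had -1.54, -0.14, -0.96 and -0.30 in the 4 mice and a mean of -0.74 ± 0.64 (SD, n = 4). Probe 9680 had -0.17, -0.65, 0.22 and -0.04 and a mean of -0.16 ± 0.36 (SD, n = 4). In mouse 2 the 4 arrays of probe 8066 lay between -1.88 and 1.79, and those of probe 9680 between -2.67 and 0.51. The means of both probes and of the gene in mouse 2 are therefore poorly determined.

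Hspb1, the small heat shock protein Hsp27, holds unfolded proteins for refolding and binds actin. It had -0.93, -0.51, -0.58 and 0.01 in mice 1 to 4, with a mean of -0.50 ± 0.39 (SD, n = 4). Mice 1 to 3 were well below the pool and mouse 4 was at its level. It was below 0 on 15 of 16 arrays; 1 array of mouse 4 had 0.96, and the 3 others of that mouse were below 0.

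**Figure D2:**
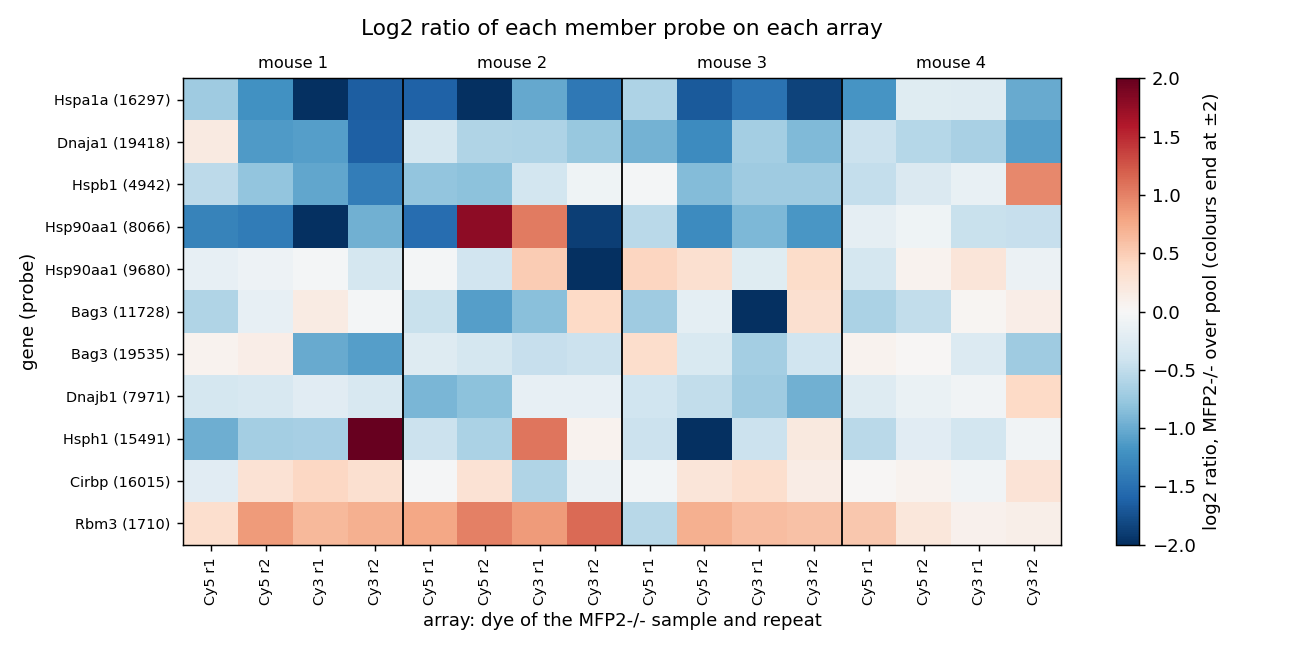
Log2 ratio of each probe (rows, probe number in brackets) on each of the 16 arrays (columns, grouped by mouse, labelled with the dye of the mutant and the repeat), blue below 0 and red above 0. Hspa1a is blue on all 16 arrays and Rbm3 red on 15, while 5 arrays for each Bag3 probe, 6 for Hsp90aa1 probe 9680 and 4 for Hsph1 are above 0.

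Rbm3 stood on the other side. It had 0.63, 0.94, 0.34 and 0.24 in mice 1 to 4, with a mean of 0.54 ± 0.32 (SD, n = 4), a linear ratio of 1.45 to the pool. Every mouse was above 0, with mouse 2 highest and mouse 4 lowest. Over the arrays Rbm3 ran from -0.56 to 1.13 with a median of 0.64, and 15 of 16 were above 0; the exception was 1 Cy5 array of mouse 3. Of the rows with a value on every array, 0.663% were above 0 on at least 15. The means in both orientations were close, 0.49 over the Cy5 arrays and 0.59 over the Cy3 arrays.

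Cirbp, which shares the single RNA recognition motif and glycine-rich tail of Rbm3, did not follow it. It had 0.20, -0.12, 0.16 and 0.07 in mice 1 to 4, with a mean of 0.08 ± 0.14 (SD, n = 4), and 10 of 16 arrays were above 0. The lowest mouse for Cirbp, mouse 2, was the highest for Rbm3. The mean of Cirbp was smaller than its spread between mice.

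In order of their means the genes ran Hspa1a, Dnaja1, Hspb1, Hsp90aa1, Bag3, Dnajb1, Hsph1, Cirbp and Rbm3. From Hspb1 to Hsph1 neighbours differed by less than their SD between mice, so their order is not settled. Nor is the place of Dnaja1 before Hspb1, since mouse 1 had -0.92 for Dnaja1 and -0.93 for Hspb1. The means of Hsph1 and Cirbp also lay closer together than the SD of Hsph1, 0.35. Hspa1a and Dnaja1 stood apart from each other in mice 1 to 3, while mouse 4 had nearly the same ratio for both, -0.67 and -0.69. These are ratios to the pool for different probes and say nothing of which gene is more abundant.

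**Figure D3:**
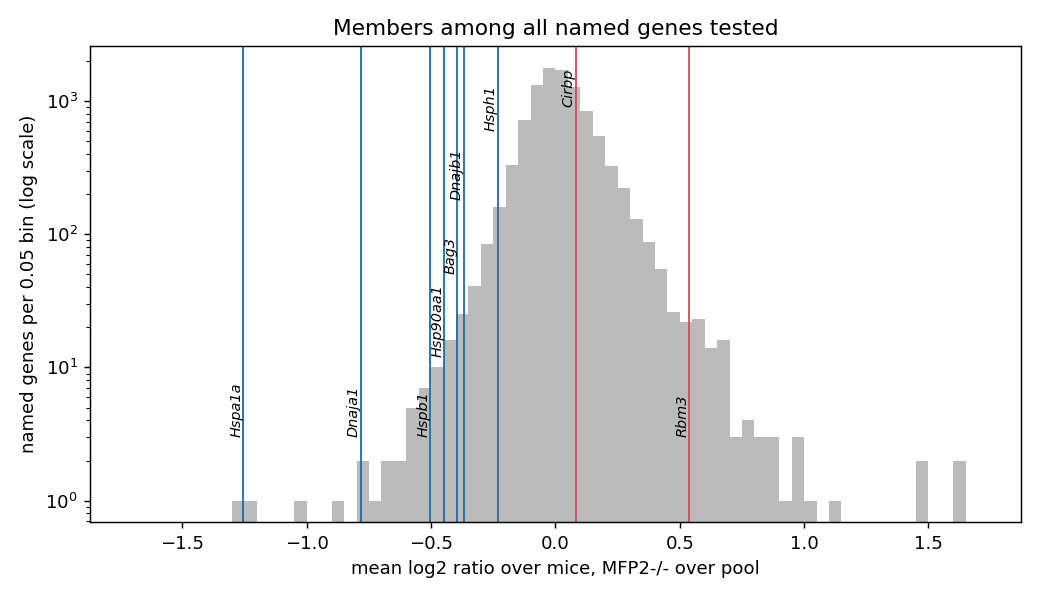
Number of named genes (y axis, log scale) by mean log2 ratio over mice (x axis, bins of 0.05), with blue lines for the heat shock genes and red lines for Rbm3 and Cirbp. Hspa1a at -1.25 lies at the lower edge of the distribution and Cirbp at 0.08 in its body.

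Array by array, the median of the 7 heat shock genes was below 0 on all 16 arrays. All 7 were below 0 on 9 arrays, at least 6 on 14 arrays and never fewer than 5. By mouse, 6, 6, 7 and 6 of the 7 were below 0 in mice 1 to 4, with medians of -0.86, -0.51, -0.64 and -0.23. Mouse 4 was closest to the pool for Hspa1a, Dnajb1, Bag3, Hsp90aa1, Hspb1, Rbm3 and Cirbp, but not for Dnaja1 or Hsph1. The share of rows below 0 in all 4 mice was 9.42%, and 5 of the 7 heat shock genes were so placed (Hspa1a, Dnaja1, Dnajb1, Bag3 and Hsp90aa1). The share above 0 in all 4 mice was 10%, and Rbm3 was there. The list was made with this contrast known, so nothing is read from these counts.

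Whether the mice differed from one another was a separate question, tested with an F-test in limma that also fitted the dye, where the spread is that between arrays of 1 mouse. It called 0.189% of 15856 rows at an adjusted p of 0.05 and none of the 9 genes. The smallest adjusted p was 0.354 for Dnajb1, followed by 0.426 for Rbm3, 0.447 for Hspb1 and 0.529 for Hspa1a. Unadjusted, Dnajb1 (limma F-test p = 0.0262) and Rbm3 (p = 0.0429) were under 0.05, as were 11.2% of all rows. The nearness of mouse 4 to the pool was therefore not shown to exceed the spread between arrays. On simulated data this test found 5 of 100 genes changed by 0.5 (log2) in 1 mouse and 61 of 100 changed by 1. It can therefore miss differences of that size. For the dye term none of the 9 genes was called, against 8.4% of all rows. The fit used the mean of the probes of a gene, and those of Bag3 split by dye in opposite directions. Probe 11728 had -0.54 in Cy5 and -0.37 in Cy3, and probe 19535 had -0.03 and -0.63. Unadjusted, Hsph1 was under 0.05 for dye, as were 29.9% of all rows.

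The arrays also allow a description of which genes varied together, as Pearson r over the 16 arrays after subtraction of the mean of each dye orientation. These arrays come from 4 mice and share 1 pool, so the r values carry no p. The 21 pairs of heat shock genes had a median r of 0.12, from -0.27 to 0.63, and 15 were above 0. Hspa1a went with Dnajb1 (0.62) and Hspb1 (0.60), and Dnajb1 with Hspb1 (0.63), whereas Dnaja1, the gene with the next lowest mean, had 0.31 with Hspa1a and -0.09 with Dnajb1. Hsph1, Bag3 and Hsp90aa1, with r between -0.27 and 0.37 to the other heat shock genes, had repeat SDs of 0.97, 0.51 and 0.87. Those of Hspa1a, Dnaja1, Hspb1 and Dnajb1 were 0.47, 0.39, 0.37 and 0.14. Whether r depends on the repeat SD was not tested.

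Between the heat shock and the cold-induced genes, 12 of 14 pairs had an r below 0. Hspa1a and Rbm3 had -0.67 (Spearman -0.64), which ranked Rbm3 at 34 from the lowest of 9643 named genes against Hspa1a. Without the 2 arrays farthest from the median of Hspa1a the r was -0.61. Without the 1 array with Rbm3 below 0 it was -0.69. Between repeat arrays of the same RNA and orientation, where the mouse is constant, it was -0.78. Each mouse and orientation had 2 arrays, whose deviations mirror each other, so this r rests on fewer values than there are arrays. It describes repeats of the same RNA and not differences between mice. Cirbp had -0.59 with Dnaja1, -0.50 with Hspa1a and 0.08 with Rbm3.

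**Figure D4:**
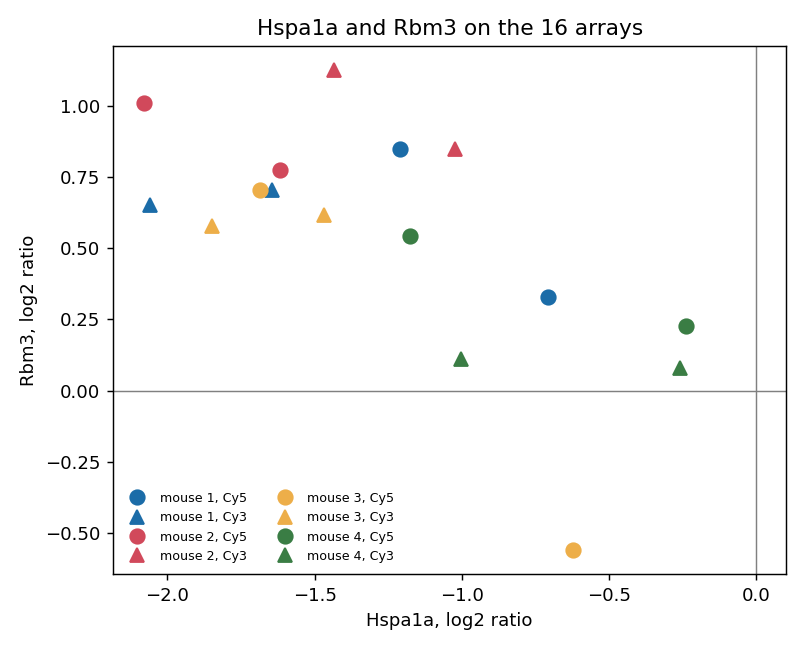
Log2 ratio of Rbm3 (y axis) against that of Hspa1a (x axis) on each of the 16 arrays, coloured by mouse, with circles for the mutant in Cy5 and triangles for the mutant in Cy3. All points lie left of 0 and 15 lie above 0, with 3 of the 4 arrays of mouse 4 at or below 0.23 on the Rbm3 axis.

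The named genes most alike to Hspa1a by this measure were St7 (0.79), Abhd1 (0.79), Slc22a6, an organic anion transporter of the proximal tubule (0.77), Gamt, an enzyme of creatine synthesis (0.77), and Adh1, an alcohol dehydrogenase (0.77). Their mean ratios to the pool lay between -0.21 and 0.15. Those most alike to Rbm3 were Pdhb, a subunit of pyruvate dehydrogenase (0.83), Snord15b (0.81), Etfb, an electron transfer flavoprotein subunit (0.81), Svbp (0.81) and Birc2, an inhibitor of apoptosis (0.81). No member was among either set of 5; Dnajb1 ranked 75 and Hspb1 ranked 89 of 9643 in likeness to Hspa1a.

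Other genes of the chaperone network had medians near 0. Of 44 listed cytosolic chaperones and co-chaperones, 31 were tested, 12 with a mean below 0 and 19 above, and their median was 0.02. Limma called 0 of them in either direction. Hspa4, an Hsp110 relative, had 0.01 ± 0.05 (SD, n = 4), and Dnajb6, a J-domain suppressor of aggregation, had 0.01 ± 0.07. Dnajb4, a relative of Dnajb1, had -0.13 ± 0.08, below 0 in 4 of 4 mice, though its probe 13976 had 0.05 in mouse 2. Of the 31 genes, 4 were below 0 in all 4 mice, as were 9.42% of all rows. Above 0 in all 4 mice were 2, against 10% of all rows. These were Hspa1l, with 0.35 ± 0.25, and Bag5, with 0.58 ± 0.54, both singled out after their values were seen. Probe 8265 of Bag5 ran from -2.92 to 2.84 and was below 0 on 5 of 14 arrays. Hspa1l was below 0 on 4 of 16 arrays. Among the 4 genes below 0 in all mice was Dnaja4, picked in the same way, with the lowest mean of the list, -0.19. Stip1, which hands clients from Hsp70 to Hsp90, had -0.39, 0.12, -0.48 and 0.09 in mice 1 to 4. The small heat shock proteins Cryab and Hspb8 had 0.10 ± 0.25 and -0.09 ± 0.06. Hspa2, Hsp90ab1, Dnaja2, Ahsa1, Chordc1, Hsf1 and Hsf2 had no named probe.

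In other compartments, the cytosolic chaperonin and prefoldin genes had 9 of 11 means above 0 and a median of 0.06, and the mitochondrial chaperones 7 of 10 and a median of 0.13. Within the second group the chaperonin pair Hspd1 and Hspe1 had -0.14 ± 0.41 and -0.08 ± 0.35 (SD, n = 4 each). Hspe1 was below 0 in mice 1 and 3 and above 0 in mice 2 and 4. The 2 probes of Hspd1 disagreed. Probe 13824, with a value on all 16 arrays, had -0.64, -0.49, -0.44 and -0.03 in mice 1 to 4, while probe 19436, with a value on 11 arrays and none for mouse 1, had a mean of 0.37. The endoplasmic reticulum stress genes had 16 of 22 means below 0 and a median of -0.06, with medians of -0.17, 0.05, -0.12 and 0.02 in mice 1 to 4. In mouse 2 their median was above 0 while that of the cytosolic heat shock genes was -0.51. Hspa5, the reticulum's Hsp70, had -0.63, 0.28, -0.71 and -0.16 and differed between mice (limma F-test adjusted p = 0.0243). Its partner Hsp90b1 had -0.58, 0.30, -0.32 and 0.06, and the collagen chaperone Serpinh1 had -0.21 ± 0.13. Ddit3, a transcription factor of prolonged stress, had -0.10 ± 0.17. The difference between the cytosolic and reticulum lists was not tested.

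**Figure D5:**
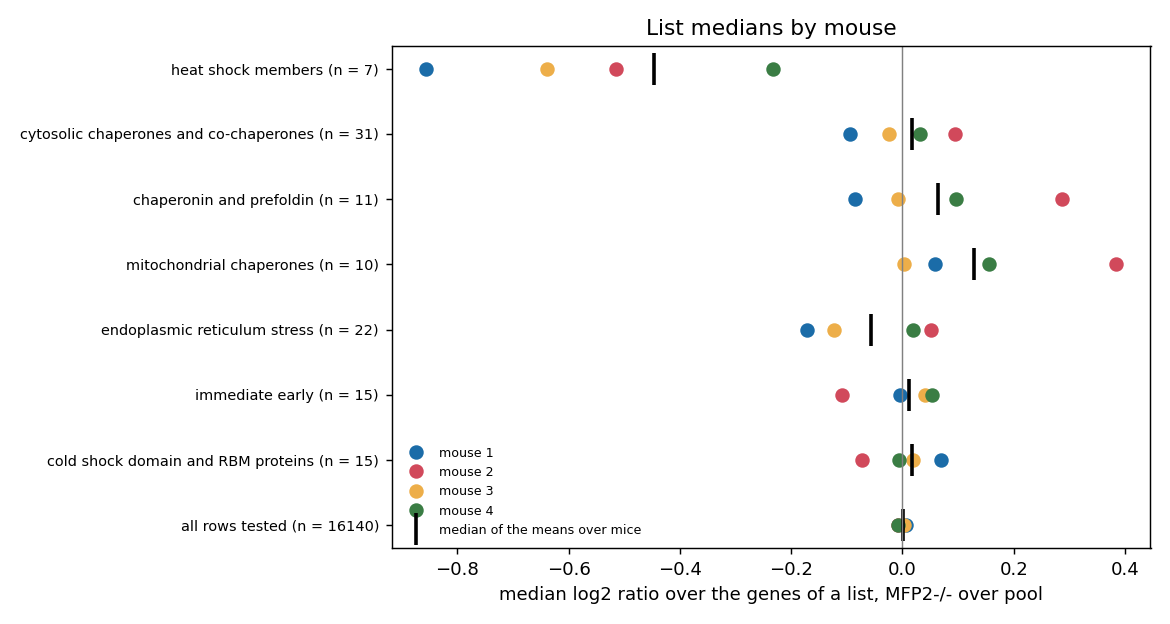
Median log2 ratio over the measured genes of each list (rows) in each mouse (coloured points), with the median of the means over mice as a black bar. The heat shock genes lie between -0.86 and -0.23, and the medians of the other lists drawn lie between -0.17 and 0.38; cell type markers are not drawn.

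Other genes of cold shock domain and RBM proteins also had a median near 0. Of 24 listed, 15 were tested, 9 with a mean above 0, and their median was 0.02. Ybx1, a cold shock domain protein, had 0.06 ± 0.20 (SD, n = 4); Ybx3 had no named probe. Immediate early genes, which respond within minutes to handling and ischaemia, had a median of 0.01 over 15 genes and 9 means above 0. Their means ran from -0.12 to 0.65. Mouse 2 alone had -1.03 for Ier2 and 1.63 for Btg2, both picked after their values were seen. The Fos probe did not pass the filter. Markers of kidney segments and of blood had ratios as far from 0 as those of several members. The medians were 0.38 over 4 loop of Henle genes, 0.29 over 4 distal tubule and collecting duct genes, 0.16 over 3 glomerulus genes and 0.15 over 10 proximal tubule genes. Slc12a1, the salt transporter of the loop of Henle, had 0.39, 0.91, 0.49 and 0.45 in mice 1 to 4 and was above 0 on 16 of 16 arrays. Like Rbm3, it was highest in mouse 2, as were S100g, with a mean of 0.65 ± 0.39, and Miox, with 0.66 ± 0.65 (SD, n = 4 each). Miox had -0.25 in mouse 1. The medians of the loop, distal, glomerulus and proximal lists were also highest in mouse 2, at 0.79, 0.41, 0.40 and 0.28. The segment markers with a mean below 0 were Umod (-0.15), Slc34a1 (-0.20), Slc13a3 (-0.11) and Slc4a1 (-0.04). Of 2 blood genes, Alas2 had -0.07 ± 0.04, and Hba-a1, a haemoglobin chain with 6 probes, had -0.60, -0.46, -0.39 and 0.07 in mice 1 to 4. As for Dnajb1 and Hspb1, mouse 4 was near the pool for Hba-a1 and the other 3 mice were below it. Slc12a1, S100g, Miox, Hba-a1 and the segment markers below 0 were singled out after their values were seen. The medians were -0.03 over 7 immune, 0.01 over 5 adrenal and -0.003 over 6 fat genes. Their part in the results was not tested.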

How the data were processed

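The deposited values are log2 ratios of the channels of each array, from the authors; no label used here states their normalisation, direction or log base. Base 2 was taken because the most extreme values were 16.1 to 17.0 in size. Values over 10 in size, 12 to 71 per array and 0 among the member probes, were treated as missing. Arrays held 19737 to 20228 values with medians of -0.149 to 0.098. No intensities were used, which leaves background unknown, and precision is limited by the number of arrays. Of 20355 probes, 14030 had 1 platform symbol, 5 several and 6320 none; 13994 symbols were updated through RefSeq (GRCm38.p6).

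Arrays were centred on their median. Each mouse's arrays were averaged per orientation, and the 2 orientations were averaged. Probes needed both orientations in at least 3 mice (20187 kept), and probes of 1 gene were averaged. The mean was tested against 0 with limma 3.58.1 in R 4.3.3, and mice and dye with a limma fit of all arrays, on rows with both orientations in all 4 mice. The pool was 1 control sample.

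The members and gene lists were chosen with earlier results of these data known. Named genes were all members, 24 genes fixed by role, and the 5 named genes most alike to Hspa1a and to Rbm3, with values on at least 14 arrays. Limma was tested on simulated data with independent noise and no pool error. Against the pool, over 16140 rows, it recovered 46 of 100 genes changed by 0.5 and 83 of 100 changed by 1 (log2). Between mice, over 15856 rows, it recovered 5 of 100 genes changed in 1 mouse by 0.5 and 61 of 100 changed by 1.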

Additional observations from a re-analysis of the deposited data

Results flagged for a closer look

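Hspa1a had a log2 ratio of -0.67 in mouse 4, against -1.41, -1.54 and -1.41 in mice 1 to 3, and its distance from the nearest of them was large for a group of 4 mice (Dixon's criterion). Pdhb, named for its likeness to Rbm3, had 0.40 in mouse 2, against 0.06, 0.06 and 0.05 in mice 1, 3 and 4. Chance alone marks about 1 in 20 such groups, and the members, the genes fixed by role and the likeness genes were all screened. The F-test between mice did not call Hspa1a (limma adjusted p = 0.529).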

How the results depend on the processing

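Of 157 recomputed means of the 9 genes, 36 were identical to the reported value; of the 121 others, 110 moved by less than the SD between mice and 11 by more. With values read as Cy5 over Cy3 on every array the median of the heat shock genes was 0.0881, Hspa1a had 0.09 and Rbm3 had -0.05. Cirbp had -0.03 on repeat 1 alone. Leaving out each mouse in turn gave a heat shock median of -0.54 to -0.39, Hspa1a from -1.45 to -1.16, Rbm3 from 0.40 to 0.64 and Hsph1 from -0.33 to -0.08. No row was called over the pool by limma except with the mutant in Cy5 alone (3 rows), with it in Cy3 alone (1), with values read as Cy5 over Cy3 (12), and with all 16 arrays and the mouse as a random block (221, of which 39 were lower). The block fit called 221 of 16140 rows. Among them were Hspa1a, Dnaja1, Dnajb1 and Rbm3, with limma adjusted p of 0.000634, 0.00118, 0.0456 and 0.0204. Bag3, Hsp90aa1, Hsph1, Hspb1 and Cirbp were not called. This fit counts arrays of 1 mouse almost as separate samples, with a correlation within mice of 0.0355. The members were listed with this contrast known, so nothing is read from these calls. The 30 rows called between mice became 16 with scaled arrays, 51 with single probes, 51 with complete probes and 2 read as Cy5 over Cy3, and 5 to 15 without 1 mouse. The 1332 rows called for dye became 2740 without centring and 260 read as Cy5 over Cy3, and 44 to 2701 without 1 mouse (2701 without mouse 2). The causes of these changes were not tested. No paired analysis was possible because there is 1 group of mice and 1 pool. Without intensities, dim and bright probes could not be told apart.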

Other observations

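Probe 2742, which has no gene name in the sources used here, gave -1.18, -1.75, -1.27 and -0.64 in mice 1 to 4 as log2 ratios, close to those of Hspa1a. It was below 0 on all 16 arrays, from -2.21 to -0.32, and its r with Hspa1a over the arrays was 0.79 within dye orientation. The unnamed probe 11818 had -0.74, -0.43, -0.83 and -0.77 in mice 1 to 4, nearer to the pattern of Dnaja1. The unnamed probe 17663 had -0.44, -0.30, -0.49 and -0.24. All 3 were picked after their values were seen.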
